A study of Mus musculus with 10 samples.

Results

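The nuclear genes for subunits of the oxidative phosphorylation complexes were read across 10 mouse esophageal squamous cell carcinoma lines. Members were matched by gene symbol, under a rule set with earlier results of these data known. The rule took symbols that begin with NDUFA, NDUFB, NDUFC, NDUFS or NDUFV followed by a number, the SDH genes A to D, and symbols that begin with UQCR, with COX4 to COX8 or with ATP5, and it left out Cox6a2. It found 77 of the 12806 named genes of the count table: 35 of complex I, 4 of complex II, 8 of complex III, 13 of complex IV and 17 of complex V. Ndufa4 and its relative Ndufa4l2 were counted with complex IV, where the Ndufa4 protein is placed. Atp5s is caught by its symbol but is no subunit of the mature ATP synthase.

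RNA-seq gene counts came from lines that all had the genotype Trp53R172H/-, a mutant Trp53 allele with no wild-type copy, on a mixed strain background, with no age of the animals in the labels. A short hairpin RNA had been put into each line, either a control (shCtrl) or one that targets the transcript of the mutant allele (shTrp53). Primary tumour cells are represented by 1 shCtrl and 1 shTrp53 line. Lung metastases at week 8 gave 8 further lines, expanded in culture and sorted for the fluorescent protein YFP: 5 were shCtrl (line numbers 376, 377, 378, 382 and 383) and 3 were shTrp53 (384, 386 and 387). No label ties these lines to separate animals, so p-values measure only the spread between lines. In bulk RNA of this kind, fewer cells of a type and less RNA per cell cannot be told apart.

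Oxidative phosphorylation makes ATP in the inner mitochondrial membrane. Complexes I and II pass electrons from NADH and succinate to ubiquinone, complex III passes them to cytochrome c, and complex IV passes them to oxygen; the protons pumped on the way drive the ATP synthase, complex V. Complexes I, III, IV and V combine subunits from nuclear genes with subunits from mitochondrial DNA, whereas complex II is nuclear only. The mitochondrially encoded subunits were not analysed here. NRF1, the nuclear respiratory factor, GABP and YY1 are transcription factors known for binding promoters of such genes.

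The promoter windows that hold the NRF1 motif are shown because the Nrf1 transcript itself was lower in the shTrp53 metastatic lines (values below with the regulators). RefSeq promoter sequences (GRCm38.p6, 250 bases before to 50 bases after a start) were found for 64 of the 77 members. The letters GCGCATGCG, searched on both strands with overlapping matches joined, stood in the windows of 8 of these 64 members (12.5%), against 1.95% of 27025 genes with a window and 4.08% of the 10172 genes of the count table that had one. In 6 members the match ended before the start, and these are printed 5′ to 3′ on the strand of the gene with up to 10 bases on each side, the match in capitals.
Atp5g2: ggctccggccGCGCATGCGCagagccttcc
Atp5k: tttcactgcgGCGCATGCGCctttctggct
Atp5l: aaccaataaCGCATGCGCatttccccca
Cox6a1: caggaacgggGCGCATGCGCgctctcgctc
Ndufa11: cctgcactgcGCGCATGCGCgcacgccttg
Ndufa8: tcgctggagaCGCATGCGC
The Atp5g2 window is chr15:102671070-102671099 on the minus strand, and its match begins 42 bases before the start. The Atp5k window is chr5:108434430-108434459 on the minus strand, with the match 50 bases before the start. The Atp5l window is chr9:44920965-44920992 on the minus strand, 241 bases before the start. Cox6a1 has its window at chr5:115349101-115349130 on the minus strand, 162 bases before the start. Ndufa11 has it at chr17:56717692-56717721 on the plus strand, 60 bases before the start. Ndufa8 has it at chr2:36049339-36049357 on the minus strand, 9 bases before the start. The matches of Uqcrc1, 30 bases after the start, and Uqcr11, across it, are not printed. Of the 8 members with a match, Atp5l rose and Uqcrc1 fell in the knockdown comparison and the other 6 did not pass its test. Of all members tested 26.3% passed, and of all genes tested 21.7%. The GABP letters CCGGAAGT stood in 7.81% of the members' windows and in 9.26% of those of the count table's genes, and the YY1 letters AAGATGGCG in 10.9% and 3.53%. Of the 15 members that passed the knockdown test and had a window, 2 held the NRF1 letters, 1 the GABP letters and 2 the YY1 letters.

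Total counts ran from 11057049 to 18431216 per line, and the 77 members took 1.68 to 2.14% of them. The level of Trp53, the targeted gene, in CPM (counts of a gene scaled to a common library size) was 94.5 to 131 among shCtrl and 5.16 to 7.36 among shTrp53 metastatic lines, and 73.7 and 6.54 in the shCtrl and shTrp53 primary lines. The squamous keratin gene Krt14 was at 3816 to 9512 CPM, and 9 of 10 listed squamous markers were in the table, with a summed level of 9776 to 14197 CPM in shCtrl and 7117 to 9621 CPM in shTrp53 metastatic lines. Another squamous keratin gene, Krt5, was at 514 to 1509 CPM in shCtrl and 161 to 388 CPM in shTrp53 metastatic lines. Its log2 fold change was -1.71 (adjusted p = 0.0139, edgeR quasi-likelihood test), and that of Krt14 was -0.48 (adjusted p = 0.0634, same test). Of the markers of other cells, 3 of 6 fibroblast genes summed to 3.3 to 10.9 CPM in shCtrl and 1.5 to 6.24 CPM in shTrp53 metastatic lines. Pecam1, the one endothelial gene of 5 in the table, stayed below 1 CPM, none of the 6 lung epithelial genes was in the table, and of 7 immune genes the table held Cd68 alone, at 96.2 to 133 and 128 to 143 CPM. The part of the squamous marker difference in the results below was not tested.

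**Figure D1:**
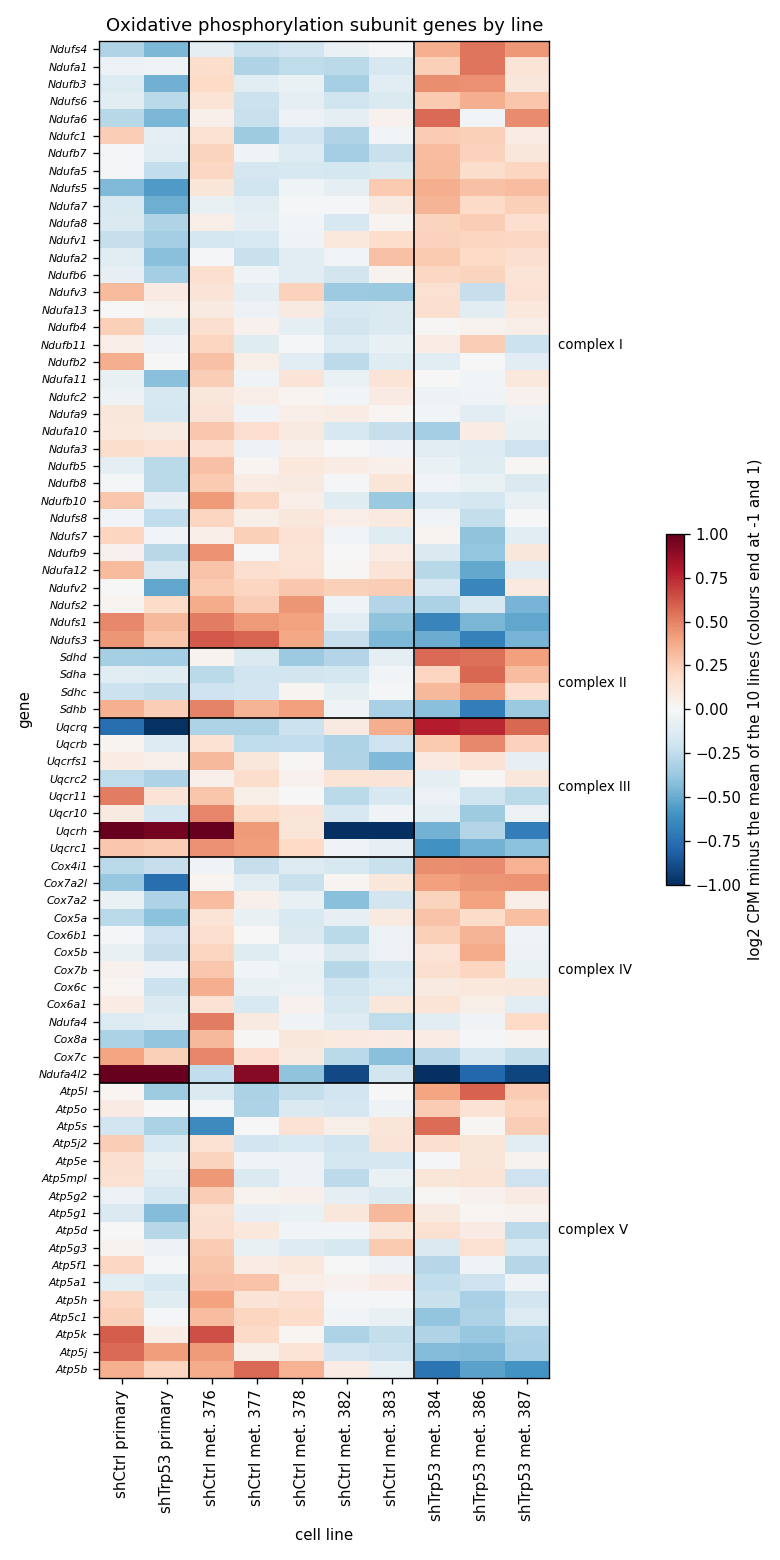
Level of each of the 77 genes (rows, grouped by complex) in each of the 10 lines (columns), as the log2 difference from the gene's mean over the lines. Shades differ from gene to gene within each complex: in complex II, Sdha, Sdhc and Sdhd are highest in the 3 shTrp53 metastatic lines and Sdhb is lowest there.

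The main comparison asked how these genes differ when mutant Trp53 is depleted in metastatic lines. The members had no common direction: 40 of the 76 tested had a log2 fold change (shTrp53 over shCtrl metastatic lines) above 0 and 36 below, with a median of 0.03 against -0.01 for all genes. Single members moved in both directions, from -0.89 for Atp5b to 0.76 for Uqcrq. By the edgeR quasi-likelihood test with p-values adjusted over all genes, 13 members rose (17.1%) and 7 fell (9.21%), where 10.9% of all 12120 genes tested rose and 10.8% fell. Among genes with a mean of at least 20 CPM, where 14.2% rose and 14.3% fell, 12 of 75 members rose and 8 fell, so the members' counts lay near the background. Ndufa4l2 did not pass the filter on low counts and was not tested. Summed over all 77 members the level was 18942 ± 1498 CPM (SD, n = 5) in shCtrl and 18725 ± 171 CPM (SD, n = 3) in shTrp53 metastatic lines.

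The number of calls moved with the lines in the fit, among the members as among all genes. Of the 20 members that passed (26.3% of those tested, against 21.7% of all genes), 5 did so whichever single line was left out: Atp5b, Cox4i1, Ndufs4, Sdhd and Uqcrq. The log2 fold changes moved less than the calls: in all 20 the log2 value stayed within 1.5 times of that of the full fit under each omission. Without line 377, 7 members rose and 2 fell while 12.6% of all genes passed, and without line 378 8 rose and 2 fell (14% of all genes). Without 384 6 rose and 1 fell (9.35%), without 386 5 rose and 2 fell (9.53%), without 387 9 rose and 4 fell (14.6%), and without 382 8 rose and 7 fell (20.1%). Without 376 16 rose and 5 fell (18.5%), and without 383 13 rose and 10 fell (26.9%). The shCtrl lines 376 to 378 differed from 382 and 383 in many members, and all shTrp53 lines have higher numbers, so a difference that goes with line number and the knockdown cannot be told apart across the whole set. With a term for lines 376 to 378 in the fit, the knockdown estimate compares the shTrp53 lines with shCtrl lines 382 and 383 only. It thus rests on fewer control lines, and the part of this smaller group in lost calls was not tested. Under this line number term 6 members rose and 1 fell (9.21% of those tested, where 7.79% of all genes passed). Of these 7, 6 were among the 20 (Atp5b, Cox4i1, Ndufb3, Ndufs4, Sdhd and Uqcrb). The other was Ndufb7, at 0.51 with the term (adjusted p = 0.049) and 0.32 without it (adjusted p = 0.121). Under the term the log2 fold changes of 14 of the 20 stayed within 1.5 times of the log2 values without it. Those of Atp5c1, Ndufs1, Ndufs3, Sdhb, Uqcrc1 and Uqcrq became smaller by more than 1.5 times on the log2 scale.

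**Figure D2:**
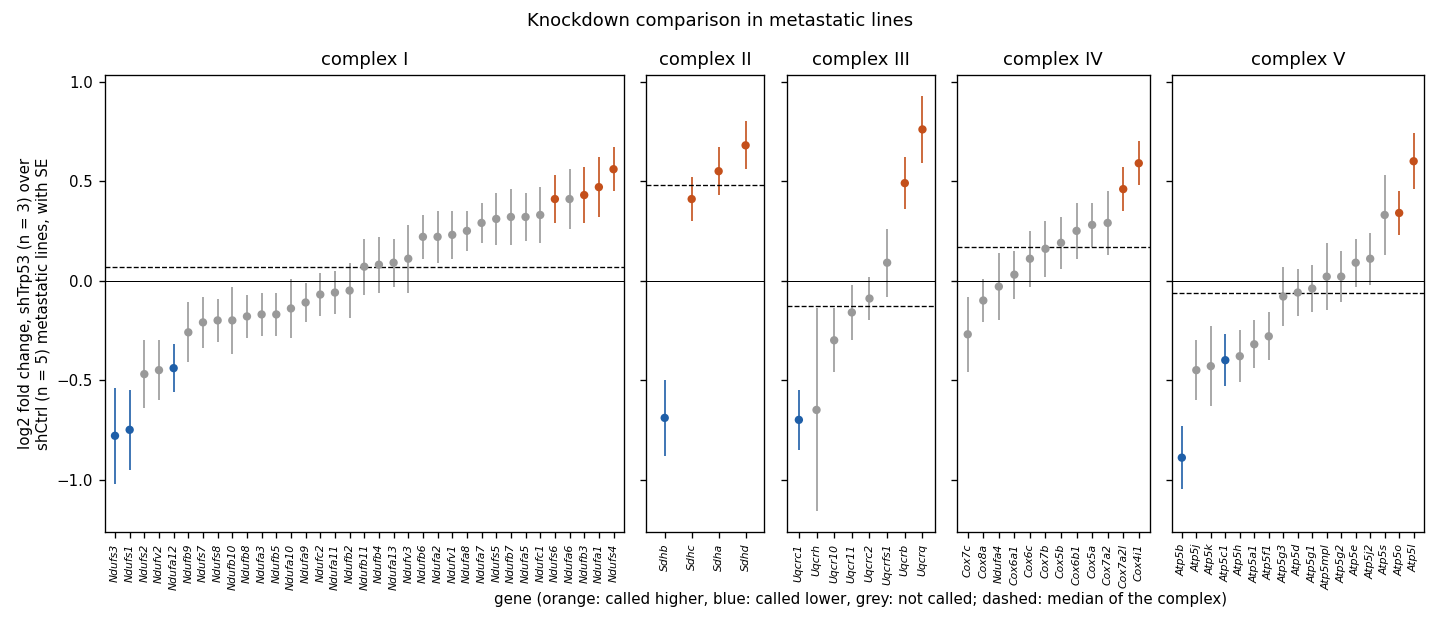
Fitted log2 fold change (vertical axis, shTrp53 over shCtrl metastatic lines, with SE) of each tested gene, by complex; orange points rose, blue points fell and grey points did not pass the test, and the dashed line is the median of the complex. Complexes I, II, III and V hold points of both colours, and complex IV, with a median of 0.17, has 2 that rose and none that fell. Among all genes tested 10.9% rose and 10.8% fell.

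Complex II, succinate dehydrogenase, which also works in the TCA cycle, had a call in all 4 of its genes, though not in 1 direction. Of the 4, 3 rose (75%) and 1 fell (25%), where 10.9% of all genes rose and 10.8% fell. With the line number term 1 rose (Sdhd) and 0 fell, where 7.79% of all genes passed. Sdha, the flavoprotein that oxidises succinate, was at 411, 432, 436, 441 and 486 CPM in shCtrl lines 376, 377, 378, 382 and 383 and at 575, 739 and 615 CPM in shTrp53 lines 384, 386 and 387. Every shTrp53 line lay above every shCtrl line. Sdha rose by 0.55 on the log2 scale, as in all changes below (SE 0.12, adjusted p = 0.012 by the edgeR quasi-likelihood test). Its call was missed without line 386 (adjusted p = 0.0509) and with the line number term (0.48, adjusted p = 0.0555). Sdhb, the iron-sulfur subunit that takes electrons from Sdha, went the other way, with 353, 318, 334, 243 and 200.1 CPM in the shCtrl lines, in the same order, and 188, 155 and 194 CPM in the shTrp53 lines. The groups did not overlap, but lines 382 and 383 lay closer to the shTrp53 lines than 376 to 378 did. Sdhb fell by 0.69 (SE 0.19, adjusted p = 0.0272). That call was missed without line 377, 378, 384, 386 or 387 (highest adjusted p = 0.109), and with the line number term the fold was -0.30 (adjusted p = 0.204).

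The membrane anchors of complex II, which hold the ubiquinone site and the haem, both rose. Sdhc stood at 102, 103, 121, 110.5 and 117 CPM in the shCtrl lines and at 148, 159.7 and 132 CPM in the shTrp53 lines. Its groups were separate and it rose by 0.41 (SE 0.11, adjusted p = 0.0294), which was missed without 377, 382, 384 or 386 (highest adjusted p = 0.105). With the line number term Sdhc was at 0.37 and missed (adjusted p = 0.107). Sdhd was at 438, 386, 332, 349 and 401 CPM in shCtrl and at 634, 627 and 568 CPM in shTrp53 lines. The lowest shTrp53 line was well above the highest shCtrl line, and Sdhd rose by 0.68 (SE 0.12, adjusted p = 0.0056), a call that held without any 1 line (highest adjusted p = 0.0269) and with the line number term (0.71, adjusted p = 0.0199). The 4 genes summed to 1223 ± 58 CPM (SD, n = 5) in shCtrl and 1578 ± 91 CPM (SD, n = 3) in shTrp53 metastatic lines. The primary lines were at 1222 CPM (shCtrl) and 1190 CPM (shTrp53), within the range of the shCtrl metastatic lines.

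**Figure D3:**
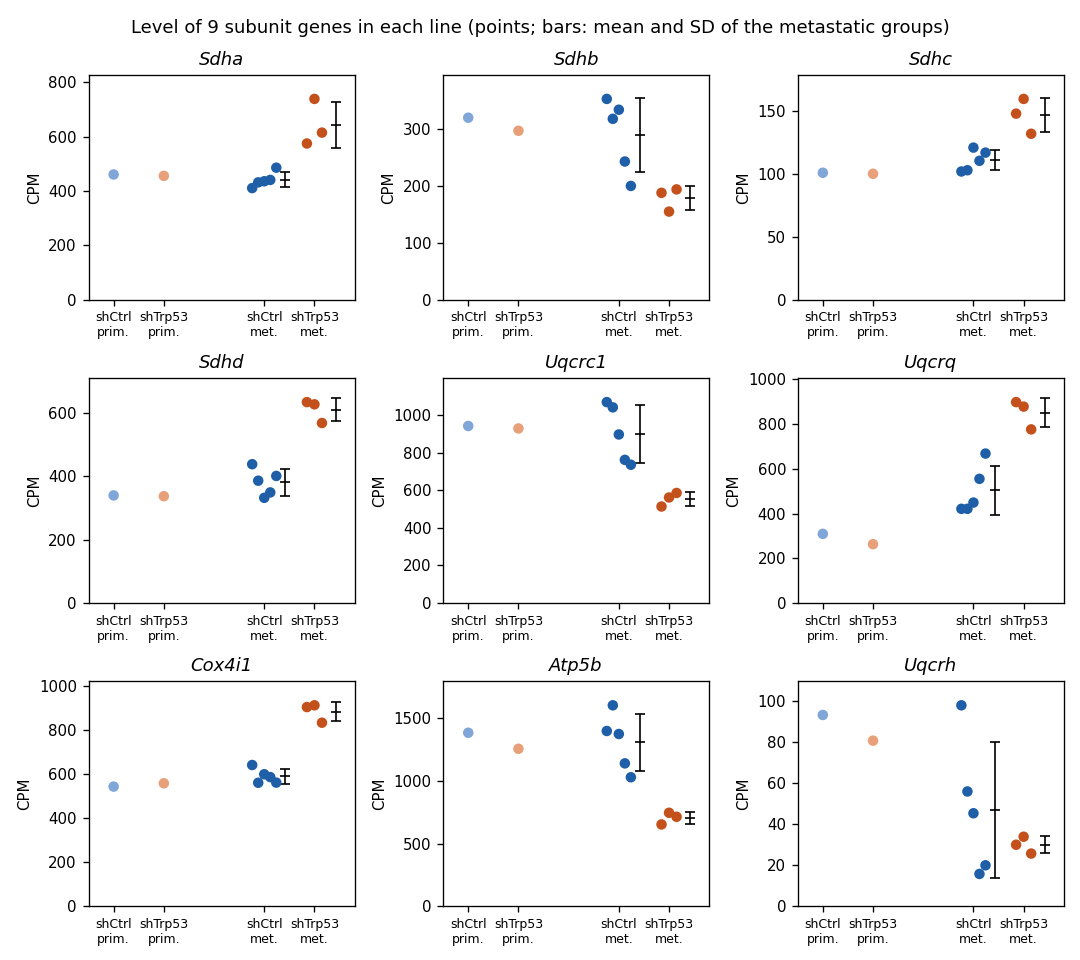
CPM (vertical axis, from 0) of Sdha, Sdhb, Sdhc, Sdhd, Uqcrc1, Uqcrq, Cox4i1, Atp5b and Uqcrh in each line (points) by group, with mean and SD of both metastatic groups. For Sdhd, Uqcrq and Cox4i1 the 3 shTrp53 metastatic lines lie above all other lines, and for Sdhb, Uqcrc1 and Atp5b below all other lines.

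In complex III, the cytochrome bc1 complex, 1 of 8 genes fell (12.5%), a core protein, and 2 small subunits rose (25%). Among all genes tested 10.8% fell and 10.9% rose. The other small subunits Uqcr10, Uqcr11 and Uqcrh lay below 0 (-0.30, -0.16 and -0.65) and did not pass. Uqcrc1, a large core protein on the matrix side, was at 1068, 1040.1, 896, 761 and 735 CPM in shCtrl lines 376 to 383 and at 513, 561 and 585 CPM in shTrp53 lines. Line 376 was highest and all shTrp53 lines lay below all shCtrl lines. Uqcrc1 fell by 0.70 (SE 0.15, adjusted p = 0.0124), missed only without line 384 (adjusted p = 0.0581), and was at -0.43 with the line number term (adjusted p = 0.066). Its partner core protein Uqcrc2 had a fold change of -0.09 (SE 0.11, adjusted p = 0.552), and the Rieske iron-sulfur protein Uqcrfs1 of 0.09 (SE 0.17, adjusted p = 0.726).

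Uqcrq, a small subunit near the ubiquinone-binding part of the complex, stood at 421, 421, 449, 555 and 668 CPM in shCtrl and at 898, 878 and 776 CPM in shTrp53 metastatic lines, with the primary lines at 309 and 263 CPM. The groups were ordered without overlap: primary lines lowest, then shCtrl and then shTrp53 metastatic lines. Uqcrq rose with the knockdown by 0.76 (SE 0.17, adjusted p = 0.0121), the largest rise of any member, and passed without any 1 line (highest adjusted p = 0.047); with the line number term it was at 0.48 and just missed (adjusted p = 0.05). Uqcrb, another small subunit, was at 177, 133, 134, 128 and 138 CPM in shCtrl and 190.2, 221 and 186 CPM in shTrp53 lines. It rose by 0.49 (SE 0.13, adjusted p = 0.0254), missed without 377, 378, 384 or 386 (highest adjusted p = 0.0974), and by 0.59 with the term (adjusted p = 0.044). Uqcrh, the hinge protein that sits with cytochrome c1, was named after its values were seen, since it varied most among well-counted members: 97.7, 55.8, 45.2, 15.7 and 19.9 CPM in the shCtrl lines. Its 3 shTrp53 lines, at 29.9, 33.8 and 25.6 CPM, lay inside that range, and its fold change was -0.65 (SE 0.51, adjusted p = 0.373) and 0.75 with the term (adjusted p = 0.156). The median over the 8 genes of complex III turned from -0.13 to 0.24 with the term.

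Complex IV, cytochrome c oxidase, had 2 members that rose (16.7%) and none that fell among 12 tested, with 9 above 0. Among all genes tested 10.9% rose and 10.8% fell. Cox4i1, the common form of the subunit through which ATP and ADP regulate the enzyme, was at 641, 560.4, 599, 586 and 561 CPM in shCtrl and 904, 912 and 833 CPM in shTrp53 metastatic lines. The spread within each group was small beside the gap between them. Cox4i1 rose by 0.59 (SE 0.11, adjusted p = 0.00598) and passed without any 1 line (highest adjusted p = 0.0279) and with the line number term (0.63, adjusted p = 0.0167). Its exons overlap Emc8 on the opposite strand in the annotation, and no source used here gives the strand setting of the counting; Emc8 had a fold change of -0.76 (adjusted p = 0.19).

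Cox7a2l, a relative of Cox7a2 that helps join complexes III and IV into supercomplexes, stood at 111, 101, 93, 111 and 117 CPM in shCtrl and at 144, 148 and 148 CPM in shTrp53 metastatic lines. The 3 shTrp53 lines were nearly equal and above all others, and Cox7a2l rose by 0.46 (SE 0.11, adjusted p = 0.0175), missed without 384, 386 or 387 (highest adjusted p = 0.0553). Cox7a2 itself had a fold change of 0.29 (SE 0.16, adjusted p = 0.213) and Cox6b1 of 0.25 (SE 0.14, adjusted p = 0.204). The tissue-restricted forms Cox4i2, Cox6b2 and Cox7a1 were not analysed here. Per kilobase of annotated exon, Ndufa4 (878 CPM per kb) and Cox4i1 (875 CPM per kb) had the highest levels of all members. Ndufa4 was at 774, 577, 529, 496 and 455 CPM in shCtrl and 500.4, 529.8 and 623 CPM in shTrp53 metastatic lines, a fold change of -0.03 (SE 0.17, adjusted p = 0.903). Its relative Ndufa4l2, which is known to be induced by hypoxia, was at 0.747 CPM per kb.

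**Figure D4:**
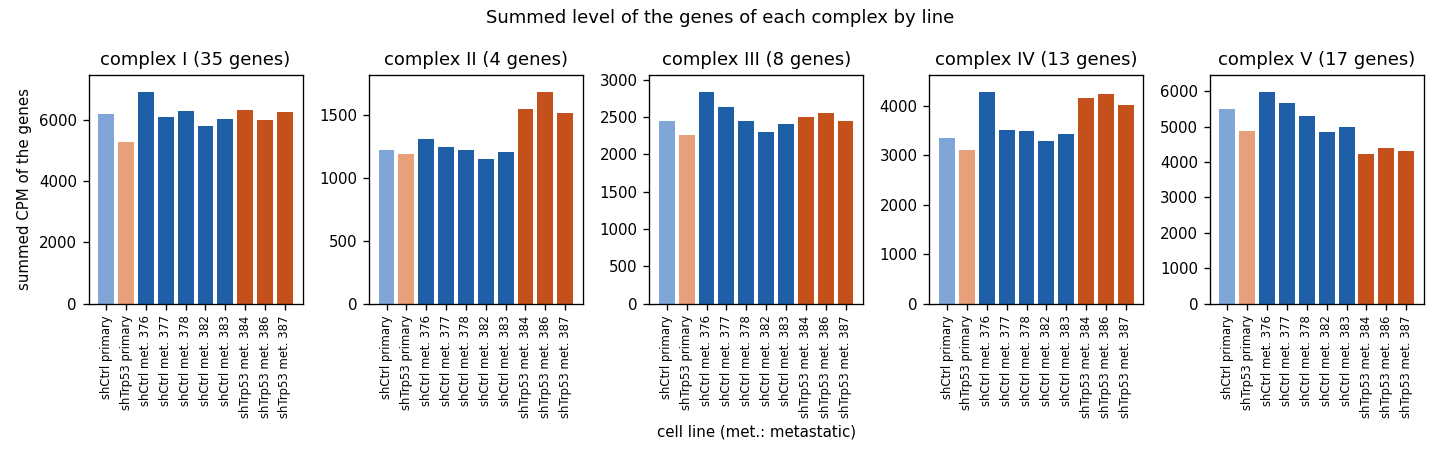
Summed CPM (vertical axis, from 0) of the genes of each complex in each of the 10 lines (bars, coloured by group). The shTrp53 metastatic lines are highest in complex II (1509 to 1681 CPM) and lowest in complex V (4226 to 4389 CPM), and in complexes I and III they lie within the range of the shCtrl metastatic lines. In complex IV they lie above 4 shCtrl lines (3282 to 3514 CPM) and below line 376 (4279 CPM).

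In complex V, the ATP synthase, the transcript with the highest CPM fell while Atp5l and Atp5o rose. Atp5b, the catalytic beta subunit, was at 1399, 1604, 1375, 1140.4 and 1029.6 CPM in shCtrl and 653, 746 and 714 CPM in shTrp53 metastatic lines, with the primary lines at 1385 and 1257 CPM. All shTrp53 metastatic lines lay below all other lines, line 377 was highest, and Atp5b fell by 0.89 (SE 0.16, adjusted p = 0.00544), the deepest fall of any member. It passed without any 1 line (highest adjusted p = 0.03) and with the line number term (-0.62, adjusted p = 0.022). Atp5c1, the gamma subunit of the rotor, stood at 468, 438, 429, 371 and 357 CPM in shCtrl and 287, 305 and 343 CPM in shTrp53 lines. It fell by 0.40 (SE 0.13, adjusted p = 0.0475), a call close to the threshold that passed only without line 383 (highest adjusted p = 0.172) and was at -0.22 with the term (adjusted p = 0.295). Atp5a1, the alpha subunit that alternates with beta in the F1 head, was at 1015 to 1203 CPM in shCtrl and 828 to 954 CPM in shTrp53 lines, a fold change of -0.32 (SE 0.12, adjusted p = 0.083) that did not pass.

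Atp5l, subunit g of the membrane part, was at 25.6, 22.7, 24, 24.8 and 28.2 CPM in shCtrl and 37.3, 42.6 and 33.7 CPM in shTrp53 metastatic lines. Its groups were separate and it rose by 0.60 (SE 0.14, adjusted p = 0.014), missed without line 386 (adjusted p = 0.0583). Atp5o, the peripheral stalk protein that joins the stalk to the F1 head, was at 311, 254, 286, 280.4 and 305 CPM in shCtrl and 377, 348 and 367 CPM in shTrp53 lines. It rose by 0.34 (SE 0.11, adjusted p = 0.0454), missed without any of 377, 378, 382, 384, 386 and 387 (highest adjusted p = 0.141). Both are among the 26 of the 77 members whose exons overlap another annotated gene. Of the members that passed the knockdown test, Cox4i1, Ndufs1, Ndufs3, Ndufs6 and Uqcrb are among them too. The part of these overlaps was not tested. The 3 genes for subunit c, the rotor ring, encode nearly the same mature protein, and none passed the test: Atp5g3 (384 CPM per kb), Atp5g1 (55.2) and Atp5g2 (19.9) had fold changes of -0.08 (SE 0.15), -0.04 (SE 0.12) and 0.02 (SE 0.13). Atp5s, which is no subunit, had a fold change of 0.33 (SE 0.2, adjusted p = 0.239). The 17 genes summed to 5362 ± 469 CPM (SD, n = 5) in shCtrl and 4309 ± 81 CPM (SD, n = 3) in shTrp53 metastatic lines. Within this sum the mean of Atp5b went from 1309.7 to 704 CPM and that of Atp5a1 from 1097 to 878 CPM. The median fold change of the complex was -0.06, with 7 of 17 genes above 0. Of the 17, 2 rose (11.8%) and 2 fell (11.8%), where 10.9% of all genes rose and 10.8% fell.

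Complex I, the NADH dehydrogenase and the largest complex, had different medians for its core and accessory subunits. Of its 7 core subunits from nuclear genes, which carry the flavin and the iron-sulfur clusters, 2 fell (28.6%), none rose and 6 lay below 0. Their median was -0.45 (-0.16 with the line number term). Of its 28 accessory subunits, which surround the core and are needed for assembly, 4 rose (14.3%) and 1 fell (3.57%), with a median of 0.10. Among all genes tested 10.9% rose and 10.8% fell. The assignment of roles is textbook knowledge made after the values were seen and the split was not tested. Ndufs1, the largest core subunit, was at 195, 184, 181, 127 and 103 CPM in shCtrl and 86.5, 99.8 and 95.4 CPM in shTrp53 metastatic lines. Its lines 382 and 383 were near the shTrp53 lines, and it fell by 0.75 (SE 0.20, adjusted p = 0.0272), missed without 377, 378, 384, 386 or 387 (highest adjusted p = 0.102) and at -0.29 with the term (adjusted p = 0.194). Ndufs3, a core subunit near the ubiquinone site, was at 122, 119, 104, 67.6 and 58.2 CPM in shCtrl and 56.3, 49.8 and 57.6 CPM in shTrp53 lines. The gap between line 383 and the highest shTrp53 line was below 1 CPM. Ndufs3 fell by 0.78 (SE 0.24, adjusted p = 0.0423), missed without 376, 377, 378, 384, 386 or 387 (highest adjusted p = 0.136) and at -0.20 with the term (adjusted p = 0.405).

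The other core subunits from nuclear genes gave no call. Ndufv2, an iron-sulfur subunit of the NADH module, was at 373 to 387 CPM in the 5 shCtrl lines and at 285, 204 and 344 CPM in the shTrp53 lines, so the groups did not overlap but the shTrp53 lines were spread; its fold change was -0.45 (SE 0.15, adjusted p = 0.0578). Ndufv1, which holds the flavin, was the core subunit above 0 (0.23, SE 0.12, adjusted p = 0.177).

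Ndufa9, an accessory subunit and with Ndufv2 the member of complex I with the highest CPM, was at 411, 366, 393, 397 and 381 CPM in shCtrl and 369, 350.2 and 361 CPM in shTrp53 metastatic lines. The groups overlapped, with a fold change of -0.11 (SE 0.10, adjusted p = 0.453). Among the accessory subunits that passed, Ndufs4, whose loss in mice is a model of Leigh syndrome, was at 74.3, 67.6, 69.1, 75.5 and 78.5 CPM in shCtrl and 101, 115 and 107 CPM in shTrp53 metastatic lines. The groups were far apart for their spread, and Ndufs4 rose by 0.56 (SE 0.11, adjusted p = 0.00788), also without any 1 line (highest adjusted p = 0.0333) and with the term (0.49, adjusted p = 0.0392). Ndufs6, which binds zinc, was at 162, 127, 137, 128 and 133 CPM in shCtrl and 176, 189 and 179 CPM in shTrp53 lines and rose by 0.41 (SE 0.12, adjusted p = 0.0308), missed without any of 377, 378, 382, 384, 386 and 387 (highest adjusted p = 0.0951). Ndufa1, a small membrane-arm subunit encoded on chromosome X, was at 126, 91, 93.9, 92.6 and 99.9 CPM in shCtrl and 132, 162 and 123 CPM in shTrp53 lines. Its line 376 lay above shTrp53 line 387, so the groups overlapped; Ndufa1 rose by 0.47 (SE 0.15, adjusted p = 0.0422), missed without any of 377, 378, 382, 384, 386 and 387 (highest adjusted p = 0.164). Ndufa12, an accessory subunit whose relative Ndufaf2 is an assembly factor, was at 269.8, 248, 246, 223 and 242 CPM in shCtrl and 183, 156 and 204 CPM in shTrp53 lines and fell by 0.44 (SE 0.12, adjusted p = 0.0292), missed without 377, 378, 384 or 386 (highest adjusted p = 0.124). The last of the 4 that rose, Ndufb3, fell outside the rule for named genes and had a fold change of 0.43 (SE 0.14, adjusted p = 0.0492).

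Whole chromosomes differed between the groups of lines. On chromosomes 8 and 13 the other tested genes had a median log2 fold change of 0.3, and 28.4% and 27.4% of them rose. Of the 13 members that rose, 5 lie there: Cox4i1 on chromosome 8 and Ndufs4, Ndufs6, Sdha and Uqcrb on chromosome 13. Relative to the median of its own chromosome, Cox4i1 was at 0.29, Ndufs4 at 0.26, Sdha at 0.24, Uqcrb at 0.19 and Ndufs6 at 0.10. Chromosome 10 went the other way, with a median of -0.23 over its other genes, 20.7% of which fell, and it holds 2 of the 7 members that fell: Atp5b was at -0.66 relative to its chromosome and Ndufa12 at -0.21. On the other chromosomes with members the medians ran from -0.12 to 0.05. Sdhd, on chromosome 9, was at 0.64 and Uqcrq, on chromosome 11, at 0.74. What part these chromosomes had in the calls was not tested.

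The primary pair, with 1 line of each kind, allows no test. Here the members lay mostly slightly lower with shTrp53: 71 of 77 had a log2 ratio of CPM below 0, against 51.2% of all genes, with a median of -0.17 (all genes -0.01). None reached a 1.5-fold difference either way, where 15.5% of all 12806 genes were at least 1.5-fold higher and 6.23% at least 1.5-fold lower in the shTrp53 line. That background is not matched to the members by level. In the comparison of sites, 75 of the 77 members but only 6673 of all genes were kept by a filter at 20 CPM. No background of well-counted genes was made for this pair, and the part of count depth in the contrast was not tested. Atp5k, subunit e of the ATP synthase, had a log2 ratio of -0.53 (95% exact binomial counting interval -0.64 to -0.42), Ndufv2 of -0.52 (-0.58 to -0.45) and Ndufa12 of -0.46 (-0.53 to -0.39). These intervals cover counting error only. By complex the medians were -0.21 for I, -0.02 for II, -0.18 for III, -0.16 for IV and -0.23 for V, and with upper-quartile scaling -0.15, 0.04, -0.12, -0.10 and -0.17. That scaling put 62 of the 77 members and 45.2% of all genes below 0, with medians of -0.11 and 0.04. Short genes as a whole were lower in that line: genes of up to 1000 bases of exon had a median of -0.16, those over 2000 bases of 0.02 and those between these lengths of -0.12. The members were below 0 in every class: 36 short members had a median of -0.21, 28 of middle length of -0.16 and 12 of over 2000 bases of -0.15. The part of gene length in these ratios was not tested.

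Whether the knockdown difference itself differed between metastatic lines and the primary pair was tested as an interaction. No member passed, as 0% of all 12754 genes did in either direction by the edgeR quasi-likelihood test. At an unadjusted p under 0.05 there were 11 members and 1168 genes (9.16%), and DESeq2 called 0 members and 52 genes. Cox7a2l had the smallest unadjusted p of the members (0.0066, interaction of 0.84 on the log2 scale): its shTrp53 line was lower in the primary pair (83.5 and 64.4 CPM) and higher among metastatic lines. Sdhd, with 339.6 and 337 CPM in the shCtrl and shTrp53 primary lines, had an interaction of 0.69 (unadjusted p = 0.0263). None of these differences between sites was established.

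Between sites, with the hairpin as a covariate, 4 members were higher in the 8 metastatic than in the 2 primary lines and 2 were lower, where 7.14% of all 12603 genes were higher and 7.65% lower. Uqcrq was higher by 1.13 (SE 0.25, adjusted p = 0.0151) and Cox7a2l by 0.71 (SE 0.18, adjusted p = 0.0244), and both were also among those that rose with the knockdown. Ndufs5, a small accessory subunit of complex I, was at 33.6 and 30.7 CPM in the primary lines, at 49.7, 39.8, 44.2, 42.7 and 54.7 CPM in shCtrl and at 58.6, 55.9 and 56.4 CPM in shTrp53 metastatic lines. All metastatic lines were above both primary lines, a difference of 0.66 (SE 0.16, adjusted p = 0.0245). Cox8a, the fourth, was outside the rule for named genes and higher by 0.44 (SE 0.12, adjusted p = 0.0378). Atp5j, coupling factor 6 of the peripheral stalk, was at 338 and 304 CPM in the primary lines, at 305, 236, 250.2, 199 and 196 CPM in shCtrl and at 169, 167 and 182 CPM in shTrp53 metastatic lines. Line 376 overlapped the primary lines, and Atp5j was lower by 0.66 (log2 fold change -0.66, SE 0.16, adjusted p = 0.0227). Its exons overlap Gabpa on the opposite strand in the annotation, and the strand setting of the counting is not known. Gabpa had a site difference of -0.65 (adjusted p = 0.0117, edgeR quasi-likelihood test), and the part of this overlap was not tested.

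Ndufa4l2 was counted 28 and 32 times in the primary lines and 1 to 11 times in each metastatic line, at 1.81 and 2.58 CPM against 0.35, 0.955, 0.298, 0.168 and 0.37 CPM in shCtrl and 0.0717, 0.195 and 0.166 CPM in shTrp53 metastatic lines. Both primary lines were above all metastatic lines, with a log2 fold change of -3.02 (SE 0.59, adjusted p = 0.00973). It passed the filter on low counts only in the fit that held the primary lines, so its call is no independent support. Without the shTrp53 primary line no member passed, and 0.951% of all genes did, against 14.8% with it. The difference was then 0.71 for Uqcrq (adjusted p = 0.236), 0.36 for Cox7a2l (0.369), 0.47 for Ndufs5 (0.328), -0.50 for Atp5j (0.31) and -2.07 for Ndufa4l2 (0.208). These 5 passed in each of the other 9 omissions of a line, and Cox8a passed in 4 of 10 (highest adjusted p = 0.245).

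The neighbouring pathways were described from lists of genes with their counts in the knockdown comparison, against the same background of 10.9% and 10.8%. Of 17 TCA cycle genes 2 rose and 3 fell, with a median of -0.05. The succinyl-CoA ligase gave 1 of each: the alpha subunit Suclg1 fell by 0.73 (SE 0.21, adjusted p = 0.0314), missed without 377, 378, 384, 386 or 387 (highest adjusted p = 0.115), and the GTP-specific beta subunit Suclg2 rose by 0.50 (SE 0.11, adjusted p = 0.0123). Mdh2, the mitochondrial malate dehydrogenase, fell by 0.77 (SE 0.16, adjusted p = 0.0108), with 911 ± 164 CPM (SD, n = 5) in shCtrl and 531 ± 53.2 CPM (SD, n = 3) in shTrp53 lines. Of 47 tested assembly factors 7 rose and 6 fell, with a median of 0.07. Cox14, which acts early in the assembly of complex IV, rose by 0.80 (SE 0.13, adjusted p = 0.00336), Surf1, another complex IV factor, by 0.72 (SE 0.15, adjusted p = 0.00967) and Ndufaf3, a complex I factor, by 0.74 (SE 0.15, adjusted p = 0.00859). Cox14 stood at 191, 152, 164, 178 and 171 CPM in shCtrl and at 345, 263 and 283 CPM in shTrp53 metastatic lines, without overlap.

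Of 10 tested subunits and electron carriers outside the symbol rule, 3 rose and 1 fell. Etfdh, which passes electrons from fatty acid and amino acid oxidation to ubiquinone, was at 55.8, 63.6, 80.7, 69.1 and 68.8 CPM in shCtrl and at 152, 133 and 113 CPM in shTrp53 metastatic lines. It rose by 0.98 (SE 0.14, adjusted p = 0.00249) without overlap, while Etfb, a subunit of the flavoprotein that hands it those electrons, fell by 0.58 (SE 0.18, adjusted p = 0.0392), a call that passed only without line 383 (highest adjusted p = 0.14). Usmg5, a small ATP synthase protein, rose by 0.66 (SE 0.12, adjusted p = 0.00664). Suclg2, Mdh2, Cox14, Surf1, Ndufaf3, Etfdh and Usmg5 passed without any 1 line. With the line number term Cox14 (0.77, adjusted p = 0.0169), Etfdh (0.95, adjusted p = 0.0144) and Usmg5 (0.66, adjusted p = 0.0269) passed, and Suclg2 (0.41, adjusted p = 0.0611), Mdh2 (-0.47, adjusted p = 0.0532), Surf1 (0.58, adjusted p = 0.0576) and Ndufaf3 (0.63, adjusted p = 0.0507) did not. Over these lists the term left 0 of 5 calls among TCA cycle genes, 1 of 13 among assembly factors and 2 of 4 among the subunits and carriers.

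Of 15 tested regulators of mitochondrial genes 1 rose and 2 fell. Nrf1 was at 55, 65.8, 61.5, 70.1 and 65.6 CPM in shCtrl and at 31.8, 38.9 and 44.7 CPM in shTrp53 metastatic lines. The groups were separate, with both primary lines (68.6 and 61.8 CPM) among the shCtrl lines, and Nrf1 fell by 0.72 (SE 0.15, adjusted p = 0.00927), also without any 1 line (highest adjusted p = 0.0443) and with the line number term (-0.81, adjusted p = 0.0178). Tfam, which packages and transcribes mitochondrial DNA, fell by 1.01 (SE 0.24, adjusted p = 0.0166), missed without 384, 386 or 387 (highest adjusted p = 0.0596) and at -0.46 with the term (adjusted p = 0.0952), and Myc rose by 0.71 (SE 0.23, adjusted p = 0.0478), missed without any of 376, 377, 378, 384, 386 and 387 (highest adjusted p = 0.157) and at 0.33 with the term (adjusted p = 0.267).

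Of 17 tested glycolysis genes 9 fell, none rose and 8 did not pass, among them Gapdh at -0.02 and Hk2 at 0.33, with a list median of -0.58. With the line number term 4 of the 9 calls were left, Gpi1, Aldoa, Tpi1 and Ldhb, and Hk1, Pfkl, Aldoc, Pkm and Ldha lost theirs (adjusted p = 0.0743 to 0.211). Ldhb, the lactate dehydrogenase chain common in oxidative tissue, had 10.3 ± 1.85 CPM (SD, n = 5) in shCtrl and 1.16 ± 0.716 CPM (SD, n = 3) in shTrp53 metastatic lines and fell by 3.11 (SE 0.39, adjusted p = 0.0012). The primary lines were low in Ldhb too, at 1.88 CPM (shCtrl) and 2.58 CPM (shTrp53), below all shCtrl metastatic lines (7.75 to 12.4 CPM). Tpi1, triosephosphate isomerase, fell by 1.29 (SE 0.19, adjusted p = 0.00242) and Aldoa, an aldolase, by 0.91 (SE 0.16, adjusted p = 0.0051), and all 3 passed without any 1 line. Of 22 genes of mitochondrial membrane transport and protein import 7 fell and 1 rose, with a median of -0.19, and 3 of these 8 calls were left with the term. Slc25a4, the ADP/ATP carrier that exports the ATP made by complex V, was at 708, 713, 682, 581 and 545 CPM in shCtrl and 389, 425 and 378 CPM in shTrp53 metastatic lines and fell by 0.70 (SE 0.13, adjusted p = 0.00678). The chaperonin gene Hspd1 fell by 0.65 (SE 0.12, adjusted p = 0.00702), and the import receptor gene Tomm70a by 0.63 (SE 0.14, adjusted p = 0.0116), which was missed without line 384 (adjusted p = 0.0549).

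Variation among lines differed from gene to gene. The coefficient of variation of CPM over the 10 lines was lowest for Ndufc2 (5.54%), an accessory subunit of complex I, had a median of 15.6%, and was highest for Uqcrh (61.6%) and the rarely counted Ndufa4l2 (122%). Ndufc2 ran from 68.3 CPM in the shTrp53 primary line to 82.1 CPM in shCtrl metastatic line 376. Many subunit genes have processed pseudogenes in the mouse genome, and no source used here says how the counting treated reads shared with such copies, so levels may hold reads from them.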

How the data were processed

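The labels' protocols give SMART-Seq v4 cDNA from 1 ng of total RNA and ThruPLEX libraries for the 10 lines. The values deposited by the authors are whole-number counts of each gene, 1 column per line, taken as not normalized since totals differ between columns. Per the submitters' processing notes, STAR 2.5, Cufflinks 2.2.1 and DESeq2 were used with the build mm9 (roles, annotation and strand: not given in the sources used here). Of 12824 rows, 18 had a bare number in place of a gene name (0.332 to 0.491% of a line's counts) and were left out.

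The test was edgeR's (version 4.0.16, R 4.3.3: filterByExpr, TMM scaling, robust glmQLFit, glmQLFTest), with Benjamini-Hochberg adjustment over all genes tested and a threshold of 0.05. SE was taken as the log2 fold change divided by the root of F. The knockdown was fitted on the 8 metastatic lines and the site on all 10 with the hairpin as a covariate. The interaction came from a fit with 4 groups. Log2 CPM ratios of the primary pair used a prior count of 2 and have no test. Alternatives were 2 other scalings, DESeq2 1.42.0, other filters, no robust dispersion, other sets of lines, a term for lines 376 to 378 and leaving out each line. The scripts were tested on simulated data. Exon lengths and overlaps came from GENCODE M21 and promoters from RefSeq, both on GRCm38, another build than the authors'; no gene coordinates are given beside the promoter windows.

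The members and lists were chosen with earlier results of these data known. Named were, per complex, up to 6 called members by smallest p and the 2 highest by CPM, up to 3 called each way between sites, isoform sets, all SDH genes and Atp5s, and up to 3 called genes per list. Uqcrh, Uqcrc2, Uqcrfs1, Ndufv1, Ndufb7, Ndufc2, Ndufb3, Cox8a, Atp5k and the glycolysis genes beyond Ldhb, Tpi1 and Aldoa were named after their values were seen.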

Additional observations from a re-analysis of the deposited data

Results flagged for a closer look

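Among the 5 shCtrl metastatic lines, 1 of the lines stood apart from the other 4 in 5 of 37 sets of values examined, all from these same lines; chance is taken to mark about 1 in 20. That line was 376 in 4 of the sets and 377 in 1. Line 376 had 126 CPM of Ndufa1 (others 91 to 99.9), 177 CPM of Uqcrb (others 128 to 138), 19 CPM of Atp5s (others 29.6 to 32.7) and a summed level of 4279 CPM of complex IV genes (others 3282 to 3514). Line 377 had 0.955 CPM of Ndufa4l2 (others 0.168 to 0.37), which rests on 11 counts.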

How the results depend on the processing

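No paired analysis was possible because the line numbers are not shared between groups. In the knockdown comparison, leaving out 1 line gave 5 to 16 members that rose and 1 to 10 that fell; the term for lines 376 to 378 gave 6 and 1, and DESeq2 gave 15 and 11. The median of complex I ran from -0.02 to 0.13 over these omissions (the value below 0 without line 386), and that of complex III was 0.24 with the term. Between sites, leaving out 1 line gave 0 to 9 members higher and 0 to 6 lower: 0 and 0 without the shTrp53 primary line, 9 higher without the shCtrl primary line and 6 lower without line 376. DESeq2 gave 13 higher, shCtrl lines alone gave 0 and 0, and genes of at least 20 CPM gave 1 lower, since Ndufa4l2 is not among them. Some members near 0 changed sign when 1 line was left out, and only those named by the rule for named genes are given here. Atp5g1 ran from -0.08 to 0.02 (above 0 without 383) and Atp5g2 from -0.01 to 0.09 (below 0 without 382, at -0.004, or 383). Ndufa4 ran from -0.13 to 0.11 (above 0 without 376, 384, at 0.03, or 386, at 0.00056), with 0.22 under the term. Other causes of these changes were not tested. Of the remaining values of named genes under all alternatives, 481 kept their direction and their side of the threshold, 86 lost the call and 6 gained it. The interaction gave 0 members under every alternative run. The scaled library sizes of the metastatic lines, on unfiltered counts, differed little between scalings. Their mean log2 difference (shTrp53 minus shCtrl) under TMM, less that under DESeq2 size factors, was -0.00527. The same value under TMM, less that under upper-quartile scaling, was -0.0135. Depth limits Ndufa4l2, with 1 to 32 counts per line.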

Other observations

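Cox6a2, the heart and muscle form of a complex IV subunit, was left out of the members by their rule. It had 0 counts in both primary lines, which allows up to 0.196 and 0.271 CPM (3 counts of the total), and 17, 24, 68, 123 and 170 counts in shCtrl metastatic lines 376, 377, 378, 382 and 383 and 133, 63 and 219 counts in shTrp53 lines 384, 386 and 387. It was counted in every metastatic line, and between metastatic groups its log2 fold change was 0.46 (adjusted p = 0.641, edgeR quasi-likelihood test).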
